A study of Mus musculus with 4 samples.

Results

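The genes of oxidative phosphorylation were followed in RNA-seq of E14 mouse embryonic stem cells (mESCs) that were wild type (WT) or lacked Haspin, the kinase that phosphorylates histone H3 at threonine 3. A row of the deposited gene table was a member when its symbol began with mt-Nd, mt-Co, mt-Cytb or mt-Atp on mitochondrial DNA (mtDNA), or with Ndufa, Ndufb, Ndufc, Ndufs or Ndufv and a digit, Uqcr, Cox4 to Cox8 or Atp5, or was Sdha, Sdhb, Sdhc or Sdhd, and rows marked -ps were left out. This gave 102 of 55401 genes, of which 13 lay on chromosome MT and 89 on nuclear chromosomes. Atp5o was listed under 2 identifiers, so the members had 101 distinct symbols, and 4 nuclear members (Cox6c2, Ndufa11b, Ndufb4c and Ndufs6b) are annotated as processed pseudogenes. A low-count filter was passed by 92 members, 12 of them mitochondrial and 80 nuclear, and 10 did not reach it. The rule does not take in every subunit: Ndufab1 and Cyc1 are described with the pathway lists.

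Each group had 2 libraries. Both groups were E14 cells, which the methods describe as kept in serum medium with LIF and 2 inhibitors (2i). No further treatment of the sequenced cultures is described. The Haspin-KO cells were made with CRISPR/Cas9 and a pair of guides. They were transfected with the guide plasmids and selected with puromycin before single clones were picked, and no such handling is described for WT. The labels do not say which clone gave which library. The labels also do not say that the 2 libraries of a group came from separate cultures, so the p-values measure the spread between these libraries only, which may be technical. In these bulk libraries, fewer cells of a type and less RNA per cell cannot be told apart. The libraries held 14207828 to 21834847 counts, and the WT libraries were the deeper pair. Haspin itself had 875 and 619 counts in WT and 149 and 209 in Haspin-KO (log2 fold change -1.60, standard error 0.16, edgeR adjusted p = 0.00154), so RNA of the targeted gene was lower but present. All 10 embryonic stem cell markers checked were expressed, with summed levels of 6690 and 6973 normalized counts per 1000000 (CPM) in WT and 6288 and 6495 in Haspin-KO. None of the 10 was called different by edgeR. At an unadjusted p under 0.05, 3 were lower, against 10.4% of all genes tested. DESeq2 called 1 lower, beside 2.14% of the genes to which it gave an adjusted p.

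Oxidative phosphorylation is carried out in the inner mitochondrial membrane by 5 protein complexes. Complex I takes electrons from NADH, complex II from succinate, complex III passes them to cytochrome c, complex IV passes them to oxygen, and complex V is the ATP synthase that uses the proton gradient built on the way. Complexes I, III, IV and V each combine subunits encoded in mtDNA, which is transcribed inside the organelle by its own polymerase, with subunits encoded in the nucleus and imported, whereas complex II is encoded in the nucleus only. Pluripotent stem cells are known to lean on glycolysis more than most differentiated cells do, and mouse cells of the naive state use both routes.

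Nuclear members were lower in Haspin-KO cells by the test in 17 of 80 cases, and no mitochondrial member passed it in either direction. Of the 80 nuclear members tested, 76 had a log2 fold change below 0, and their median was -0.29, against -0.004 for all 15580 genes tested. In the quasi-likelihood test of edgeR, adjusted by Benjamini-Hochberg over all genes, 17 nuclear members were called lower at an adjusted p under 0.05 and none was called higher; over all genes tested, 1.51% were called lower and 0.988% higher. None of the 17 changed by more than 2-fold: their mean CPM was 20.5% to 33.7% lower in Haspin-KO. In 72 of the 80 nuclear members, both Haspin-KO libraries lay below both WT libraries, which held for 27% of all genes tested. The 12 mitochondrial members tested had a median of 0.04, and 0 of them were called in either direction. DESeq2 also called 0 of the 12, but it gave no adjusted p for mt-Atp8 and mt-Nd3. In edgeR, 3 (mt-Nd1, mt-Nd4 and mt-Co1) were higher and 1 (mt-Atp8) lower at an unadjusted p under 0.05. At that unadjusted threshold, 51 of the 80 nuclear members were lower, against 10.4% of all genes. The difference between the mitochondrial and the nuclear set has no test, since genes of 1 set share libraries and are not replicates.

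**Figure D1:**
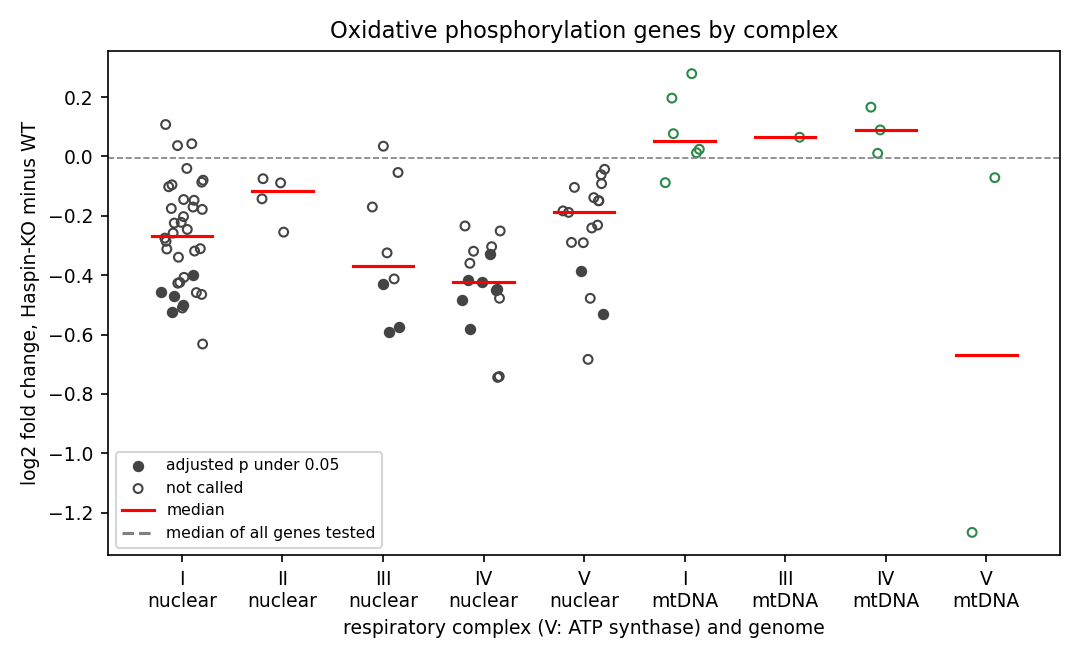
Log2 fold change (Haspin-KO minus WT, 2 libraries each) of each tested member, by respiratory complex and by the genome that encodes it. Filled points passed an adjusted p under 0.05, red bars are medians and the dashed line is the median of all genes tested. All filled points are nuclear and lie below -0.3, and the mtDNA columns of complexes I, III and IV lie between -0.09 and 0.28.

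The shares of counts taken by the members of each genome did not overlap between the groups. Mitochondrial members took 2.93% and 2.76% of all counts in WT and 3.16% and 3.15% in Haspin-KO. Nuclear members took 1.16% and 1.10% in WT and 0.977% and 0.960% in Haspin-KO. Both Haspin-KO libraries were above both WT libraries in the first share and below them in the second. The ratio of mitochondrial to nuclear member counts was 2.53 and 2.51 in WT and 3.23 and 3.28 in Haspin-KO, with means of 2.52 ± 0.019 and 3.26 ± 0.033 (SD, n = 2). The Haspin-KO ratio was 1.29 times the WT ratio, a gap many times the spread within either group, although an exact permutation test of 2 against 2 libraries cannot give a two-sided p below 0.333. Between the replicates of a group, the median nuclear member differed by 0.04 (WT) and -0.00 (Haspin-KO) on the log2 scale, and in each Haspin-KO library it was 0.26 to 0.32 below each WT library.

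The number of calls depended on both WT libraries, for the members and for all genes. Without WT replicate 1, 3 members and 0.381% of all genes were called lower, and without WT replicate 2, 2 members and 0.43%. Leaving out Haspin-KO replicate 1 gave 19 members and 2.57% of all genes, and leaving out Haspin-KO replicate 2 gave 18 and 2.63%. The log2 fold change also moved with mRNA length in the whole data set, and most nuclear members have short mRNAs. Their median mRNA length was 714 bases, against 2800 over the 13326 genes tested that have an mRNA length. Among genes that are not members, the median log2 fold change was -0.25 for mRNAs under 500 bases (102 genes) and 0.10 for those of 4500 bases or more (2948 genes). A smooth trend over mRNA length was then removed in each library, a step chosen after the data were examined. This fit covers the 13326 genes with an mRNA length, 91 members among them. With the trend removed, 0 members were called lower by edgeR (18 at an unadjusted p under 0.05) beside 0.803% of these genes. Called higher was 1 member (mt-Nd1) beside 0.788% of these genes, and the nuclear median was -0.09. The mitochondrial minus the nuclear median was 0.33 as fitted, 0.30 with the length trend removed, and 0.09 when a trend over GC content was removed as well. With both trends removed, 1 member (Cox7b) and 0.57% of the 13326 genes with an mRNA length were called lower. DESeq2 without that correction called 20 members lower and 2.14% of the genes to which it gave an adjusted p.

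**Figure D2:**
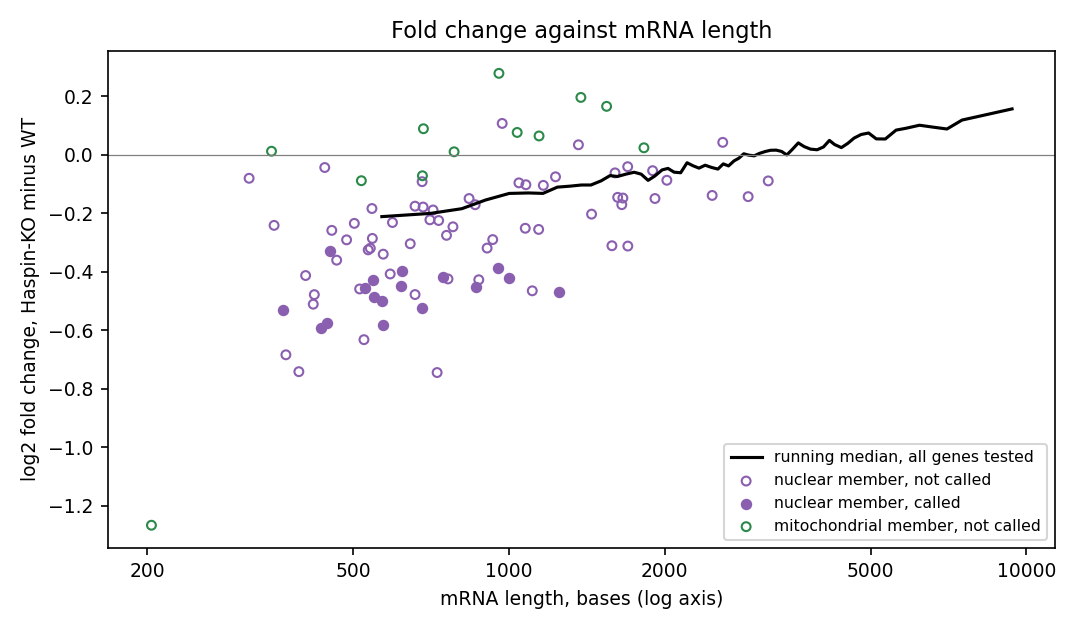
Log2 fold change (Haspin-KO minus WT) of tested members against mRNA length in bases on a log axis, with the running median over all genes tested that have an mRNA length, in windows of 400 genes. The running median climbs from left to right, and the 17 called members (filled) lie below the whole curve.

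Within a range of lengths, nuclear members can be set beside other genes, as a description without a test. Of 46 nuclear members with mRNAs under 800 bases, 13 (28.3%) were called lower with a median log2 fold change of -0.38. Of the 529 other genes in that range, 45 (8.51%) were called lower with a median of -0.19. Among mRNAs of 800 bases or more, 4 of 33 nuclear members (12.1%) and 150 of 12706 other genes (1.18%) were called lower, with medians of -0.15 and -0.01. These wide ranges are not matched in length within themselves. Split at 500, 600, 800, 1000 and 1500 bases, other genes had medians of -0.25, -0.15, -0.20, -0.15 and -0.12 from short to long. Nuclear members had medians of -0.41, -0.41, -0.29, -0.30 and -0.20. Called lower were 13.7%, 17%, 4.5%, 3.24% and 1.67% of the other genes. Of the members, 4 of 15, 5 of 15, 4 of 16, 2 of 8 and 2 of 11 were called, and 0 of the longer ones. Across the 79 nuclear members with an mRNA length, the log2 fold change and the length gave Pearson's r = 0.551 (on log2 length) and Spearman's rho = 0.555, against 0.141 and 0.297 over 13326 genes. The points of these correlations share their libraries and lengths, so they are given as a description. What part the length trend has in the members' change was not tested.

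The 13 protein-coding genes of mtDNA fell into a high and a low set. On the deposited FPKM scale, which divides counts by exonic length and library total, mt-Co1, the catalytic subunit of complex IV, was the highest member of all at 9738 and 8953 FPKM in WT and 10503 and 10528 in Haspin-KO. Both Haspin-KO libraries were above both WT libraries, but the difference did not pass the test (log2 fold change 0.17, standard error 0.07, edgeR adjusted p = 0.218). It alone took 50.1% to 51.7% of the mitochondrial member counts in the 4 libraries. The other genes of the high set encode complex I and III subunits. For mt-Nd1, a membrane subunit of complex I, the levels were 3181 and 2795 FPKM in WT and 3914 and 3364 in Haspin-KO (log2 fold change 0.28, standard error 0.087, edgeR adjusted p = 0.117). The Haspin-KO libraries were again both higher, and the distance between them was larger than that from the lower of them to the higher WT library.

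The rest of the high set had smaller log2 fold changes. The levels of mt-Nd4, which encodes a proton-pumping subunit, were 1227 and 1248 FPKM in WT and 1434 and 1411 in Haspin-KO (log2 fold change 0.20, standard error 0.064, edgeR adjusted p = 0.127), without overlap of the groups. Those of mt-Nd2, a further proton-pumping subunit, were 1815 and 1708 FPKM in WT and 1889 and 1838 in Haspin-KO (log2 fold change 0.08, edgeR adjusted p = 0.54). Cytochrome b, the catalytic membrane subunit of complex III and the product of mt-Cytb, stood at 3500 and 3290 FPKM in WT and 3554 and 3568 in Haspin-KO (log2 fold change 0.06, edgeR adjusted p = 0.619). For both, the Haspin-KO libraries were above the WT libraries by less than the WT libraries differed from each other. The groups overlapped for mt-Nd5 at 1756 and 1871 FPKM in WT and 1731 and 1967 in Haspin-KO (log2 fold change 0.02, edgeR adjusted p = 0.903). They also overlapped for mt-Nd6 at 766 and 769.7 FPKM in WT and 681 and 767 in Haspin-KO (log2 fold change -0.09, edgeR adjusted p = 0.569). The gene mt-Nd6 is read from the opposite strand to the other 12 and overlaps mt-Nd5 by 14 bases, and since the strand setting of the counting is not stated, reads of the overlap cannot be told apart.

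The low set was made up of mt-Co2, mt-Atp8, mt-Atp6, mt-Co3, mt-Nd3 and mt-Nd4l, which are neighbours on mtDNA. The catalytic-core subunit mt-Co2 had 46.2 and 37.6 FPKM in WT and 49.2 and 40.5 in Haspin-KO, so mt-Co1 was 211 to 260 times higher per length in the same libraries although both encode core subunits of 1 complex. The core subunit gene mt-Co3 had 20 and 18.4 FPKM in WT and 19.2 and 19.6 in Haspin-KO. The proton-channel subunit of ATP synthase, mt-Atp6, had 18.4 and 13.9 FPKM in WT and 17.3 and 13.7 in Haspin-KO. None of these 3 separated the groups: their log2 fold changes were 0.09, 0.01 and -0.07, and the adjusted p-values were 0.747, 0.975 and 0.865. The complex I gene mt-Nd3 had 23 and 19 counts in WT and 15 and 16 in Haspin-KO, and mt-Nd4l had 10 and 10 counts in WT and 6 and 8 in Haspin-KO and did not reach the filter. The ATP synthase subunit gene mt-Atp8, which overlaps mt-Atp6 by 43 bases, had 36 and 24 counts in WT and 4 and 14 in Haspin-KO (log2 fold change -1.27, standard error 0.51, edgeR adjusted p = 0.199). Its Haspin-KO libraries both stood under the WT pair, at few counts and with the 2 Haspin-KO libraries far apart.

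The sequence around this low set is repeated in the nucleus, and the genes were counted there as well. GENCODE M21 annotates on chromosome 1 (GRCm38, the build named mm10 by the authors; minus strand) 7 loci between chr1:24611535-24612410 and chr1:24615706-24616197 that carry mt-Nd4, mt-Nd4l, mt-Nd3, mt-Co3, mt-Atp6, mt-Co2 and part of mt-Co1 in the mitochondrial order. Aligned over their lengths, the copies of mt-Co2 (Gm28661, 681 bases), mt-Atp6 (Gm10925, 678 bases), mt-Co3 (Gm28437, 783 bases), mt-Nd4l (Gm10222, 294 bases) and the first part of mt-Nd4 (Gm28439, 876 bases) were identical to the mitochondrial transcripts, and those of mt-Nd3 (Gm28438) and mt-Co1 (Gm29216) had 1 mismatch each. No separate copy is annotated for mt-Atp8. Its last 43 bases lie in the stretch that Gm10925 repeats, and the place of its first part falls in the 233 bases between Gm10925 and Gm28661. The first 60 bases of mt-Atp6 and of its copy are shown because no read within them could be placed by sequence, and those of mt-Nd3 because a single base, in capitals, tells the copy apart.
mt-Atp6: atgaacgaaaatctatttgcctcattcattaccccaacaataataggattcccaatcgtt
Gm10925: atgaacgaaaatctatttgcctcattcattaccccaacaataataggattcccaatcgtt
mt-Nd3: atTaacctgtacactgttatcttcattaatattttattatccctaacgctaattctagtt
Gm28438: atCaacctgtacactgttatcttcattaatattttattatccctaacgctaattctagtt

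The copies had counts of the same order as the low set. Gm10925 had 353 and 207 counts in WT and 226 and 217 in Haspin-KO, and Gm28437 had 291 and 183 counts in WT and 164 and 161 in Haspin-KO. Gm28438 had 131 and 182 counts in WT and 58 and 119 in Haspin-KO, more in each library than mt-Nd3 itself. None of the 6 copies that passed the filter was called, with log2 fold changes from -0.40 to 0.46. How reads that map to several places were treated is not stated in the sources used here, so the levels of these 6 mitochondrial members are uncertain, and the mitochondrial comparison rests mainly on the 7 others. Those 7 had a median log2 fold change of 0.08, and the 5 tested members of the low set one of 0.01. For mt-Co1 and mt-Nd4, 63.9% and 62.8% of the 31-base words also occur elsewhere among the annotated transcripts.

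**Figure D3:**
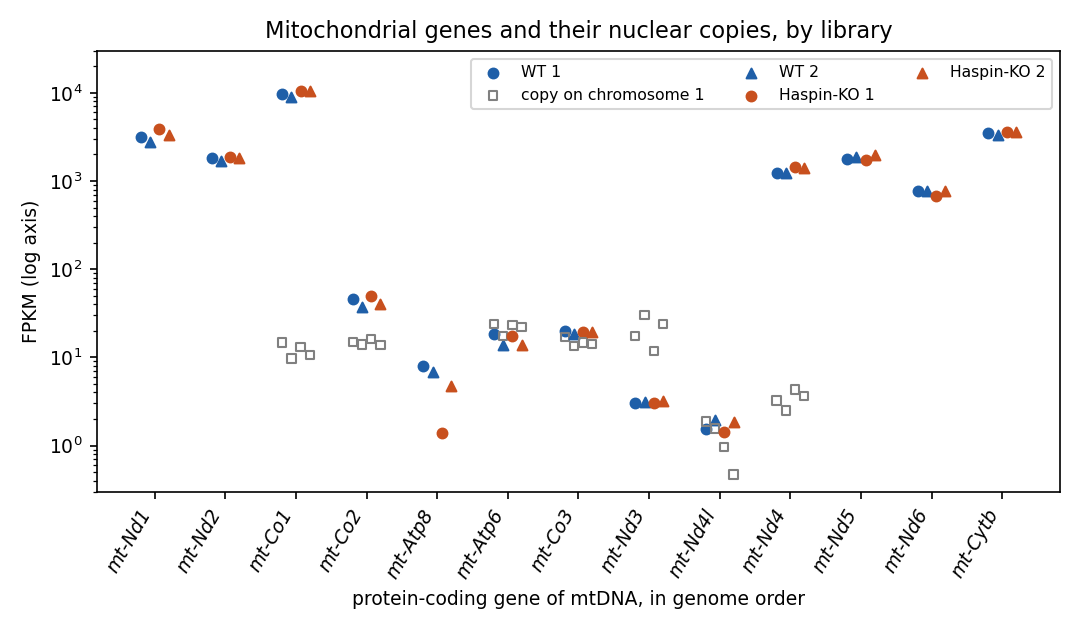
FPKM (log axis) of the 13 protein-coding genes of mtDNA in genome order, in the 2 WT libraries (blue) and the 2 Haspin-KO libraries (orange), with the 7 copies on chromosome 1 as open squares. Genes from mt-Co2 to mt-Nd4l lie below 50 FPKM, the copies at or below 30.2 FPKM, and the 7 others lie above 600 FPKM.

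Of the other genes of mtDNA, the 2 ribosomal RNA genes were called higher in Haspin-KO, beside 0.988% of all genes tested. The small-subunit RNA mt-Rnr1 had 65.9 and 72.5 CPM in WT and 132 and 101 in Haspin-KO (log2 fold change 0.75, standard error 0.12, edgeR adjusted p = 0.0158). The large-subunit RNA mt-Rnr2 had 314 and 298 CPM in WT and 437 and 376 in Haspin-KO (log2 fold change 0.41, standard error 0.084, edgeR adjusted p = 0.0388). In both the Haspin-KO libraries were above the WT libraries. The libraries were made with an mRNA kit, so these counts cannot be read as levels of ribosomal RNA. Neither gene has an mRNA length, so the length and GC corrections do not cover them. Of the 22 mitochondrial tRNA genes, 21 had no more than 3 counts in any library, and mt-Tp, the proline tRNA, had 23.7 and 28.9 CPM in WT and 37.9 and 34.9 in Haspin-KO (log2 fold change 0.47, edgeR adjusted p = 0.0772).

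Complex IV held the most called members. All 15 of its nuclear members tested were lower in both Haspin-KO libraries than in both WT libraries, against 27% of all genes tested. Their median log2 fold change was -0.42, and 7 of them were called lower, beside 1.51% of all genes tested. Their summed level was 2248 and 2187 CPM in WT and 1672 and 1684 in Haspin-KO. The largest called change of the complex was in Cox6a1 (chr5:115345642-115348981), the widespread isoform of subunit VIa, with 249.5 and 235 CPM in WT and 158 and 165 in Haspin-KO (log2 fold change -0.58, standard error 0.073, edgeR adjusted p = 0.00505). Cox8a (chr19:7215153-7217616), one of the smallest subunits and the highest nuclear member of the complex in FPKM, had 224 and 237 CPM in WT and 162 and 167 in Haspin-KO (log2 fold change -0.49, standard error 0.072, edgeR adjusted p = 0.0118). In each of them the groups were separated by several times the spread within a group. Cox4i1 (chr8:120668222-120674207), the subunit through which ATP and ADP regulate the enzyme, had 552 and 513 CPM in WT and 406 and 391 in Haspin-KO (log2 fold change -0.42, standard error 0.071, edgeR adjusted p = 0.0203).

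The other 4 called members of complex IV were separated in the same way. Cox5b, a zinc-binding subunit, had 102 and 97.6 CPM in WT and 75.5 and 70.4 in Haspin-KO (log2 fold change -0.45). Cox6b1, which faces the intermembrane space, had 180.4 and 175 CPM in WT and 134 and 126 in Haspin-KO (-0.45). Cox7b, needed for assembly of the complex, had 131 and 136 CPM in WT and 96.4 and 102 in Haspin-KO (-0.42). Ndufa4, named for complex I but known as a subunit of complex IV, had 189 and 184 CPM in WT and 148 and 149 in Haspin-KO and the smallest called change (log2 fold change -0.33, edgeR adjusted p = 0.0442). The adjusted p-values of the first 3 were 0.0262, 0.0188 and 0.0267. After the length trend was removed, the complex IV median was -0.22, and Cox6a1 had the smallest edgeR adjusted p of the complex, 0.0574. With a trend over GC content removed as well, Cox7b was called lower (log2 fold change -0.43, edgeR adjusted p = 0.0383).

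**Figure D4:**
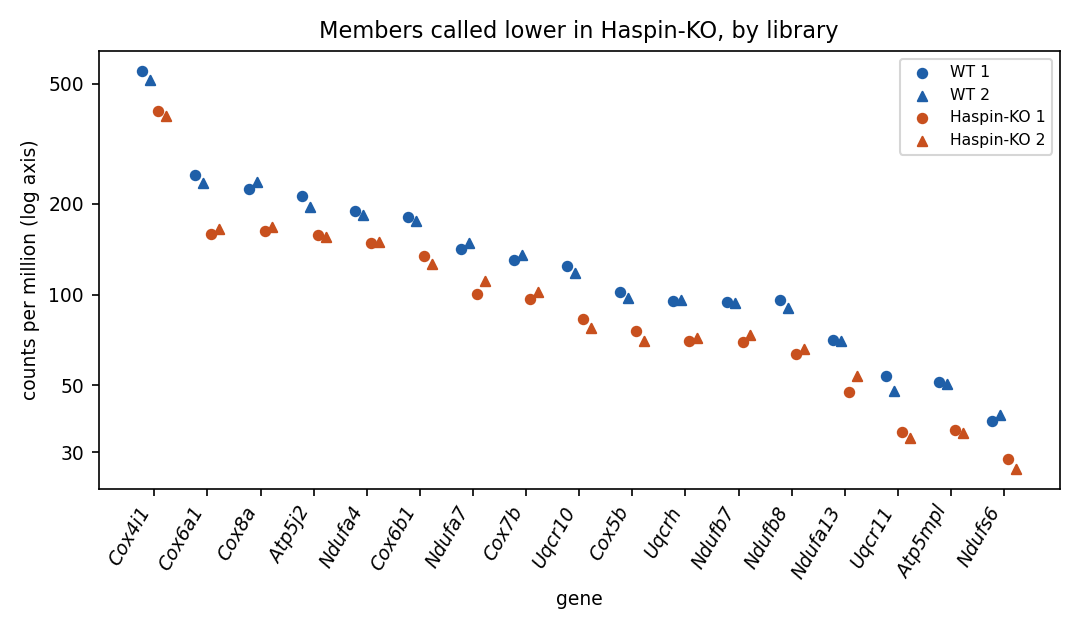
CPM (log axis) of the 17 members called lower, in each of the 4 libraries, ordered by their WT level. In each gene both Haspin-KO libraries (orange) lie below both WT libraries (blue).

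In complex III, 3 of 5 small subunits were called lower, beside 1.51% of all genes tested. Of the 3 core and iron-sulphur subunits, 0 were called by edgeR (1 lower at an unadjusted p under 0.05) and 0 by DESeq2. The 5 small subunits had a median log2 fold change of -0.43 and a summed level of 495 and 464 CPM in WT and 359 and 343 in Haspin-KO. Uqcr10 (chr11:4701973-4704342), the highest nuclear member of the complex in FPKM, had 124 and 118 CPM in WT and 83.1 and 77.7 in Haspin-KO (log2 fold change -0.59, standard error 0.081, edgeR adjusted p = 0.00776). Uqcr11 (chr10:80402997-80406830) had 53.8 and 48.1 CPM in WT and 35 and 33.6 in Haspin-KO (log2 fold change -0.57, standard error 0.098, edgeR adjusted p = 0.0207). Uqcrh, the hinge protein that holds cytochrome c1, had 95.2 and 95.8 CPM in WT and 69.9 and 71.9 in Haspin-KO (log2 fold change -0.43, standard error 0.079, edgeR adjusted p = 0.0264). The other small subunits, Uqcrb and Uqcrq, had log2 fold changes of -0.32 and -0.41 with edgeR adjusted p-values of 0.0572 and 0.0796. DESeq2 called all 5 lower, beside 2.14% of the genes to which it gave an adjusted p. Of the large subunits, Uqcrc1 had a log2 fold change of -0.17 and Uqcrc2 one of -0.05. The iron-sulphur protein Uqcrfs1, which hands electrons to cytochrome c1, was among the 5 nuclear members with the highest log2 fold change, with 102 and 100.2 CPM in WT and 103 and 104 in Haspin-KO (log2 fold change 0.03, standard error 0.075, edgeR adjusted p = 0.835). The large subunits have mRNAs of 1653 and 1896 bases, and those of the 3 called members are 434 to 547 bases long.

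In complex I, the called members were all accessory subunits. Its 7 nuclear core subunits, which carry the flavin and the iron-sulphur clusters, had a median log2 fold change of -0.15 and 0 calls by edgeR (2 at an unadjusted p under 0.05, and 0 by DESeq2). The 29 accessory subunits tested had a median of -0.31 and 5 calls, all lower, beside 1.51% of all genes tested. Ndufb8 (chr19:44548572-44555440), in the membrane arm, had 96 and 90.1 CPM in WT and 63.4 and 66.2 in Haspin-KO (log2 fold change -0.52, standard error 0.083, edgeR adjusted p = 0.0154). Ndufs6, a zinc-binding subunit, had 38 and 39.9 CPM in WT and 28.5 and 26.5 in Haspin-KO (log2 fold change -0.50, standard error 0.10, edgeR adjusted p = 0.0364). Ndufa13, also known as Grim-19, had 70.5 and 70.1 CPM in WT and 47.7 and 53.9 in Haspin-KO (log2 fold change -0.47, edgeR adjusted p = 0.0327). In these 3 genes the lowest WT library was well above the highest Haspin-KO library. Ndufa7 had 142 and 148 CPM in WT and 100.2 and 111 in Haspin-KO (log2 fold change -0.46, edgeR adjusted p = 0.0251). Ndufb7, which carries disulphide bonds on the intermembrane side, had 94.8 and 93.9 CPM in WT and 69.8 and 73.4 in Haspin-KO (log2 fold change -0.40, edgeR adjusted p = 0.0347). The highest nuclear complex I member in FPKM, Ndufa11, was not called, with 93.7 and 82.9 CPM in WT and 75.6 and 69.3 in Haspin-KO (log2 fold change -0.29, edgeR adjusted p = 0.128).

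Of the 5 nuclear members with the highest log2 fold change, 4 were in complex I. Ndufb4, an accessory subunit, had 19.9 and 20.5 CPM in WT and 23.7 and 19.8 in Haspin-KO (log2 fold change 0.11, standard error 0.13), and its processed pseudogene Ndufb4c had 3.52 and 3.05 CPM in WT and 3.34 and 3.43 in Haspin-KO (0.04). All 31-base words of Ndufb4c occur elsewhere in the transcripts, so its counts are uncertain. The largest core subunit, Ndufs1, had 170.3 and 173 CPM in WT and 169.7 and 184 in Haspin-KO (0.04), and Ndufv2, a core iron-sulphur subunit, had 120.2 and 113 CPM in WT and 119 and 108 in Haspin-KO (-0.04). In all 4 the groups overlapped, and the adjusted p-values were 0.68 to 0.953.

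Ndufs5 was among the 5 lowest by log2 fold change but at few counts. It had 28 and 23 counts in WT and 11 and 13 in Haspin-KO (log2 fold change -0.63, standard error 0.38, edgeR adjusted p = 0.375), while the row Ndufs5-ps on chromosome 16 had 735 and 527 counts in WT and 358 and 362 in Haspin-KO (log2 fold change -0.35, edgeR adjusted p = 0.117). The 319 bases of Ndufs5-ps align to the Ndufs5 transcript with 2 mismatches (99.4% identity), so the 2 rows compete for the same reads. Both were lower in both Haspin-KO libraries, and neither was called. The 60 bases of the coding sequence that hold both mismatches, in capitals, are shown because within the shared stretch only reads across them can be assigned.
Ndufs5: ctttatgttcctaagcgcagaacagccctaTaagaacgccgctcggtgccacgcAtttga
Ndufs5-ps: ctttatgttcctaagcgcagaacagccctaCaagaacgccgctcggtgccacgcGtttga
The same holds in part for Ndufa12 (2 mismatches to Ndufa12-ps over 402 bases) and for the called Cox5b (3 mismatches to Cox5b-ps over 390 bases). Cox5b-ps had 186 and 151 counts in WT and 90 and 77 in Haspin-KO (log2 fold change -0.56, edgeR adjusted p = 0.126). The 59 nuclear members tested with under 20% of their 31-base words elsewhere had a median log2 fold change of -0.30. They had 14 calls, all lower, beside 1.51% of all genes tested.

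In complex V, 2 membrane subunits were called lower, beside 1.51% of all genes tested. Atp5b, the catalytic beta subunit and the highest nuclear member in FPKM, had 2075 and 1914 CPM in WT and 1790 and 1806 in Haspin-KO (log2 fold change -0.15, standard error 0.069, edgeR adjusted p = 0.254). The 5 subunits of the head and central stalk had a median of -0.15 and 0 calls by edgeR (2 at an unadjusted p under 0.05), and 0 by DESeq2. Atp5mpl (chr12:111961375-111966977), a small proteolipid of the membrane part, was called lower, with 51.4 and 50.5 CPM in WT and 35.7 and 34.7 in Haspin-KO (log2 fold change -0.53, standard error 0.09, edgeR adjusted p = 0.0199). Atp5j2, subunit f of the membrane part, was called too, with 212 and 196 CPM in WT and 157 and 155 in Haspin-KO (log2 fold change -0.39, standard error 0.075, edgeR adjusted p = 0.0326). In both genes the libraries of a group lay close together. Atp5k, subunit e, which takes part in pairing the enzyme into dimers, had a larger log2 fold change at a lower level, with 26 and 22 CPM in WT and 17 and 12.9 in Haspin-KO (log2 fold change -0.68, standard error 0.16, edgeR adjusted p = 0.0553). It did not pass this test, and DESeq2 called it lower (adjusted p = 0.0296). All 17 tested members of the complex had a log2 fold change below 0, and their median was -0.19, or 0.02 with the length trend removed.

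Complex II has no mitochondrial subunit, and 0 of its 4 members were called. Over all genes tested, 1.51% were called lower and 0.988% higher. With so few genes at those shares, 0 calls do not set complex II apart from all genes. The same holds for the core subunits of complexes I and III and for the head and central stalk of complex V. Its highest member in FPKM, Sdhd, one of the membrane anchors, had 120.4 and 120.4 CPM in WT and 113 and 115 in Haspin-KO (log2 fold change -0.07, standard error 0.074, edgeR adjusted p = 0.601). The flavoprotein Sdha, the iron-sulphur subunit Sdhb and the anchor Sdhc had log2 fold changes of -0.14, -0.25 and -0.09. All 4 were lower in both Haspin-KO libraries than in both WT libraries, against 27% of all genes tested. None was called by edgeR (Sdhb had an unadjusted p under 0.05) or by DESeq2. Their median was -0.12, or -0.11 with the length trend removed. With that trend removed, the medians of complexes I, III, IV and V stood at -0.07, -0.09, -0.22 and 0.02. The differences between complexes, and between core and small subunits, were not tested, and the median mRNA length ran from 541 bases in complex III to 2066 in complex II.

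Several subunits of complexes IV and V have isoforms known from particular tissues, and the cells expressed the widespread forms. Cox4i1 stood at 357 and 329 FPKM in WT and 266 and 249.7 in Haspin-KO. Cox4i2, known from lung and from oxygen-dependent regulation, was at 1.16 and 1.38 FPKM in WT and 0.45 and 1.05 in Haspin-KO, or 20 and 19 counts in WT and 5 and 12 in Haspin-KO (log2 fold change -0.74, standard error 0.49, edgeR adjusted p = 0.421). The muscle form Cox6a2 had 4 and 0 counts in WT and 2 and 1 in Haspin-KO. The muscle form Cox8b had 0 counts in all libraries, and Cox8c, known from testis, had 1 and 0 counts in WT and 4 and 1 in Haspin-KO. Cox7b2 had 2 and 9 counts in WT and 6 and 6 in Haspin-KO, and Ndufa4l2, known as a hypoxia-induced relative of Ndufa4, had 8 and 9 counts in WT and 2 and 6 in Haspin-KO. None of these 5 reached the low-count filter, and counts of 3 or fewer in a library are at the floor taken here, so no direction can be read from them.

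Cox7a1 and Cox6b2 were the exceptions. Cox7a1, known as the heart and skeletal muscle isoform, had 21.7 and 21.2 FPKM in WT and 14.6 and 11.1 in Haspin-KO, and its widespread counterpart Cox7a2 had 26.7 and 22.7 FPKM in WT and 18.3 and 17.4 in Haspin-KO. Per length, Cox7a1 thus stood at 81.0% and 93.4% of Cox7a2 in WT and at 79.9% and 64.0% in Haspin-KO. Its log2 fold change was -0.74 (standard error 0.18, edgeR adjusted p = 0.0614) without overlap of the groups, and that of Cox7a2 was -0.48 (0.0847 in adjusted p). Cox6b2, known from testis, had 40.9 and 46.1 FPKM in WT and 35 and 33 in Haspin-KO (log2 fold change -0.36, edgeR adjusted p = 0.0882), which was 16% to 18.8% of Cox6b1 in the 4 libraries. The FPKM divide by an exonic length of 1108 bases for Cox6b2, whose mRNA has 465, and in counts per mRNA length Cox6b2 stood at 33.3% to 39.1% of Cox6b1. The 3 genes for the same membrane-ring subunit c, Atp5g1, Atp5g2 and Atp5g3, differed in level. Atp5g3 had 102 and 96.9 FPKM in WT and 93.8 and 81.7 in Haspin-KO and was the highest in each library, with Atp5g1 at 12.3% to 14.5% and Atp5g2 at 5.79% to 6.90% of it. None of the 3 was called, with log2 fold changes of -0.23, -0.04 and -0.19. The exonic length of Atp5g1 in the table is far above its mRNA length (596 bases), which lowers its FPKM, and in counts per mRNA length it stood at 33.1% to 39% of Atp5g3. Of the 31-base words, 67.3% of those of Atp5g1 and all of those of Atp5g2 also occur elsewhere.

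**Figure D5:**
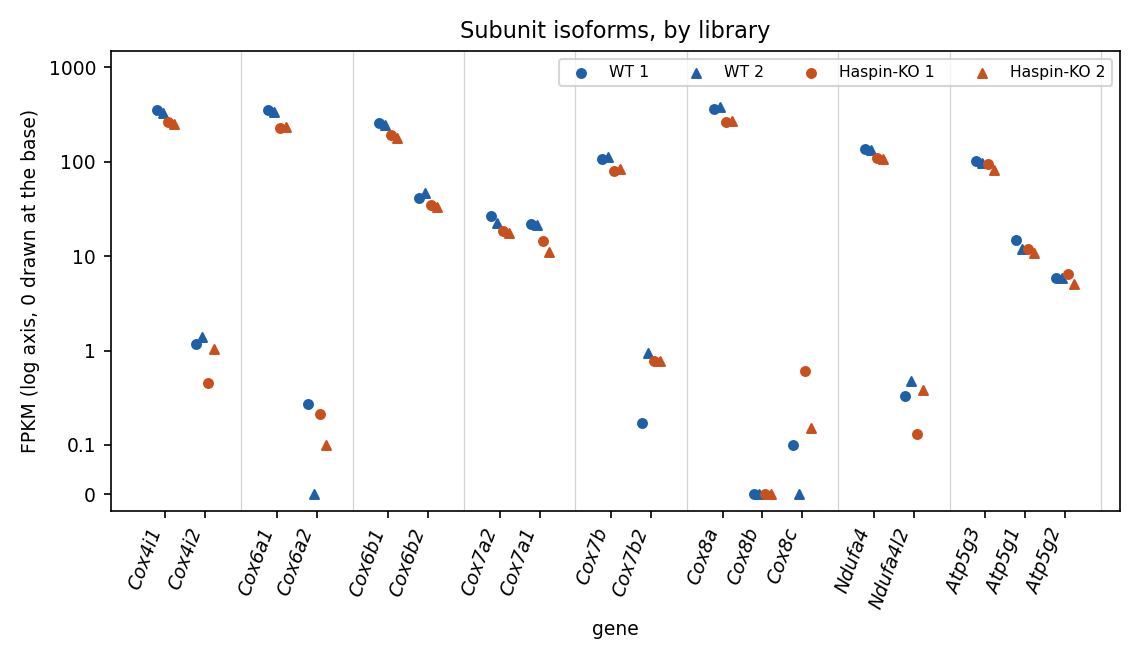
FPKM (log axis, values of 0 at the base) of subunit isoforms in the 4 libraries, with the widespread form first in each block. Cox7a1 lies next to Cox7a2, Cox6b2 lies below Cox6b1, and the other tissue-limited isoforms lie near or below 1 FPKM.

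The remaining members under the filter were pseudogene or duplicate rows. Cox6c2 had 2 and 0 counts in WT and 1 and 2 in Haspin-KO, and Ndufa11b had 0 and 1 counts in WT and 0 and 0 in Haspin-KO. Ndufs6b had 7 and 3 counts in WT and 9 and 8 in Haspin-KO, too few to read a direction from. The second Atp5o identifier had 0 counts in all libraries, and the first had 221 and 202 CPM in WT and 198 and 184 in Haspin-KO (log2 fold change -0.15, edgeR adjusted p = 0.316).

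The promoters of nuclear members are known for binding sites of NRF1, of the ETS factor GABP and of YY1. RefSeq promoter sequences (GRCm38.p6, 250 bases before to 50 after the start site) matched 68 of 88 nuclear symbols. Each was searched on both strands for CGCATGCG (the NRF1 core), CCGGAAGT (an ETS core) and AAGATGGC (the YY1 core). The first reads the same on both strands, and in the promoters of called members no match lay on another. At least 1 of the 3 was present in 22 of 68 nuclear members (32.4%), against 16.6% of the 11077 tested genes with a promoter and 9.03% of all 27025 promoters. The NRF1 core was in 13.2% of members and 4.17% of tested genes, the YY1 core in 14.7% and 4.98%, and the ETS core in 7.35% and 8.68%. Among the members called lower, 15 had a promoter entry and 7 of them a match. These counts describe letters in a window and no binding.

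The promoters of Cox6a1, Uqcr11 and Cox8a are shown, from 180 bases before to 20 after the start site on the gene's strand, since they belong to the members with the largest changes in complexes III and IV that hold a match, which stands in capitals. In Cox6a1 (chr5:115348939-115349138, minus strand) the NRF1 core begins 161 bases before the start. In Uqcr11 (chr10:80406802-80407001, minus strand) an ETS core begins at -66 and an NRF1 core at -5. In Cox8a (chr19:7217597-7217796, minus strand) an ETS core on the opposite strand begins at -6. A second ETS core of Cox8a begins at 32, within the window searched but past the end of the stretch shown.
Cox6a1: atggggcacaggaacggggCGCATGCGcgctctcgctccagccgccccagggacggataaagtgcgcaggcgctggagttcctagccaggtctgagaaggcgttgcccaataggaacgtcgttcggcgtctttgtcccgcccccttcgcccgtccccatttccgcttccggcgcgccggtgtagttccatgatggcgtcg
Uqcr11: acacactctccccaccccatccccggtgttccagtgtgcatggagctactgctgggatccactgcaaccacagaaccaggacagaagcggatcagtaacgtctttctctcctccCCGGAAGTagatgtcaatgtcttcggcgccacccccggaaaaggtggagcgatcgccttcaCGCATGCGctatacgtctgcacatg
Cox8a: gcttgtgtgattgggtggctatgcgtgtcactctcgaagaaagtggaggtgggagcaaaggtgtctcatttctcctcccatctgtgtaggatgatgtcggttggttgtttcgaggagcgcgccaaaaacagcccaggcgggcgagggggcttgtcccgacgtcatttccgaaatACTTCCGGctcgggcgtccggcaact

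Transcripts of the factors themselves were also measured. Of 9 nuclear regulators of mitochondrial genes, 8 were tested and 0 were called by edgeR or by DESeq2. At an unadjusted p under 0.05 in edgeR, 1 was lower and 1 higher, against 10.4% of all genes tested in each direction. The log2 fold changes were -0.16 for Nrf1, 0.24 for Gabpa and 0.16 for Yy1, with adjusted p-values of 0.355, 0.128 and 0.307. Ppargc1a, the coactivator known from brown fat and muscle, had no more than 1 count in any library.

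Genes that build and serve the respiratory chain were counted by list. Of 10 further subunits and carriers found, 1 was called lower and 1 higher, beside 1.51% and 0.988% of all genes tested. Atpif1, which inhibits ATP hydrolysis by the synthase, had 132 and 128 CPM in WT and 90.5 and 90.6 in Haspin-KO (log2 fold change -0.53, standard error 0.075, edgeR adjusted p = 0.00934). Cycs, the somatic cytochrome c that carries electrons from complex III to IV, had 34.8 and 35.4 CPM in WT and 50.2 and 55.5 in Haspin-KO (log2 fold change 0.59, standard error 0.095, edgeR adjusted p = 0.0158) and so moved the other way. In both genes the groups did not overlap. With the length trend removed, 0 genes of this list were called lower and 1 higher, beside 0.803% and 0.788% of the genes with an mRNA length. With a trend over GC content removed as well, 0 were called in either direction, beside 0.57% lower and 0.443% higher. Cyc1, the cytochrome c1 of complex III, had a log2 fold change of -0.16 (0.289 in adjusted p) and Ndufab1, the acyl carrier of complex I, one of 0.03 (0.861).

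The assembly factors had median log2 fold changes of -0.07 over 16 tested for complex I, -0.07 over 4 for complex II, -0.13 over 5 for complex III, -0.01 over 21 for complex IV and 0.17 over 3 for complex V, with 0 called in any by edgeR (6 lower and 0 higher at an unadjusted p under 0.05). DESeq2 also called 0 in these lists and in the 3 that follow. The 25 genes of mtDNA and mitochondrial RNA maintenance had a median of -0.01 and 0 calls (2 lower and 1 higher at an unadjusted p under 0.05). The 13 genes of the TCA cycle, which feeds complexes I and II, had a median of -0.10 and 0 calls (2 lower at an unadjusted p under 0.05). Of the 78 mitochondrial ribosomal protein genes, 56 were below 0, with a median of -0.13, and 0 were called (19 lower and 2 higher at an unadjusted p under 0.05). Over all 15580 genes tested, 7890 were below 0, and edgeR called 1.51% lower and 0.988% higher. At an unadjusted p under 0.05, 10.4% of all genes were lower and 10.4% higher. The 6 lower assembly factors were among 49 tested, near that share. With the length trend removed, the medians were 0.03 for the mitochondrial ribosome and -0.07 for the TCA cycle, against -0.09 for the nuclear members.

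Markers of fibroblasts also differed between the groups. The study's methods name mitomycin-treated mouse embryonic fibroblasts as feeders and gelatin for assays, and the labels do not say on which the sequenced cells grew. Of 16 fibroblast markers, 12 were tested and 9 were called lower, beside 1.51% of all genes tested. Among the 9 were Col1a2 (645 and 419 counts in WT and 7 and 7 in Haspin-KO) and Thbs1 (1953 and 1073 counts in WT and 68 and 48 in Haspin-KO). Leaving out Fn1, which stem cells also express and which was not called, the 15 others summed to 372 and 272 CPM in WT and 50.9 and 44.6 in Haspin-KO. Dcn, Lox, Postn and S100a4 had counts in WT and were at 0 in both Haspin-KO libraries, and Lum was at 0 in all 4. The part of these markers in the members' levels was not tested.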

How the data were processed

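RNA was extracted with TRIzol, 1.0 µg per library was made into libraries with an mRNA kit and sequenced on a NovaSeq instrument. The authors trimmed reads (cutadapt 1.9.1), mapped them to mm10 (HISAT2 2.0.1), and, by the submitters' processing notes, used HTSeq 0.6.1 and DESeq2. They deposited raw counts per gene and FPKM values per library, and the FPKM values equal counts over exonic length and library total. Strand setting, annotation release and treatment of multiply mapped reads are not given in the sources used here. Totals were 21834847 and 17452307 (WT) and 14207828 and 14436750 counts (Haspin-KO), and at most 3 counts in a library was taken as the floor (counting error only). The 2 libraries of a group differed by more than sampling noise (chi-square per degree of freedom 7.07 in WT and 5.39 in Haspin-KO).

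Counts of all genes were fitted with edgeR 4.0.16 in R 4.3.3 (filterByExpr, TMM, quasi-likelihood test, no block), and genes with a Benjamini-Hochberg adjusted p under 0.05 over the 15580 genes tested were called. Standard errors were the log2 fold change over the square root of F. CPM are scaled by TMM. Alternatives were DESeq2 1.42.0, other scalings and filters, thinning, the replicate block, limma 3.58.1 on log2(FPKM + 0.1), each library left out, and, chosen after the data were examined, loess corrections (span 0.3) for the mRNA length and GC content of the principal GENCODE M21 transcript with the longest coding sequence, which 85.5% of tested genes had. Where such transcripts of a gene tied in coding length, the one with the shortest mRNA was taken. Transcripts were compared by 31-base words and pairwise alignment (Biopython 1.88).

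The members and gene lists were chosen with earlier results of these data known. Named members are those on chromosome MT, those called, the highest FPKM of each complex, the 5 largest and 5 smallest nuclear log2 fold changes, isoform sets and members under the filter. Groups within a complex, Uqcrb, Uqcrq, Uqcrc1, Uqcrc2, Sdha, Sdhb, Sdhc, Ndufa12 and unaltered list genes were added after their values were seen.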

Additional observations from a re-analysis of the deposited data

How the results depend on the processing

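The count of members called lower was the result that moved most. It stayed at 17 to 20 under DESeq2 and its size factors, library totals with or without chromosome MT, a minimum of 10 counts and thinning, with 0 called higher, and the 17 called by edgeR were among them in each. Over all genes, DESeq2 called 2.14% lower. With its size factors in edgeR, 233 of 15580 were lower, and with library totals 223, or 217 without chromosome MT. A minimum of 10 counts gave 195 of 14356 genes lower, and thinning 283 of 15253. Without a filter, 33 members were called lower and 1 higher, beside 2.53% and 1.56% of all genes. The count of members called lower was 0 under limma on log2(FPKM + 0.1), on log2(FPKM + 1) and without a filter (47 to 52 lower at an unadjusted p under 0.05), where limma called 0 of all genes too. It was also 0 when a fold change over 2 was asked as well, which 129 of the genes tested passed. Leaving out 1 library gave 2 to 19 lower and 0 to 1 higher (mt-Nd1, without Haspin-KO replicate 2), with the fewest without WT replicate 1 (3) or WT replicate 2 (2). With the replicate block, 53 were lower and 2 higher (mt-Nd1 and mt-Nd4), on 1 residual degree of freedom, beside 11.2% of all genes lower and 11.4% higher. The libraries share only a number, and their replicate differences correlated at r = 0.289 over genes.

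The nuclear median was -0.32 without a filter, and -0.32 to -0.26 when a library was left out. The mitochondrial median was then 0.033 to 0.11, their difference 0.35 to 0.37, and the Haspin-KO share of counts 1.07 to 1.14 times that of WT. The mRNA length correction gave 0 lower and 1 higher, medians of -0.087 (nuclear) and 0.21 (mitochondrial), and a difference of 0.30. With the replicate block it gave 19 lower and 8 higher (9.46% and 11% of the genes with an mRNA length), -0.087, 0.21 and 0.30. With GC content it gave 1 lower, 0 higher, -0.097, -0.011 and a difference of 0.086. The cause of these shifts was not tested.

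Of 823 values of the 46 named members tested, 43 changed sign; none of these members was called by edgeR. With the length correction alone and with the block, log2 fold changes turned to 0.26 and 0.26 (Atp5g2), 0.017 and 0.019 (Atp5g1), 0.021 and 0.020 (Atp5g3), 0.038 and 0.038 (Ndufv2), 0.042 and 0.042 (Sdhd), 0.18 and 0.18 (mt-Nd6) and 0.15 and 0.16 (mt-Atp6). With GC content they turned to -0.053 (mt-Nd2), -0.16 (mt-Nd5), -0.016 (mt-Cytb), -0.0059 (mt-Co3), 0.31 (Atp5g2), 0.068 (Atp5g1), 0.041 (Ndufa11) and 0.011 (Sdhd). Without a filter they turned to -0.0033 (mt-Nd5), -0.016 (mt-Nd3) and -0.018 (mt-Co3), and after thinning to -0.062 (Ndufb4c). When a library was left out, ranges spanned 0 for Atp5g2 (-0.21 to 0.11), Ndufb4 (-0.026 to 0.23), Ndufb4c (-0.056 to 0.14), Ndufs1 (-0.020 to 0.10), Ndufv2 (-0.10 to 0.019), mt-Atp6 (-0.25 to 0.14), mt-Co2 (-0.042 to 0.24), mt-Co3 (-0.039 to 0.062), mt-Nd3 (-0.042 to 0.065), mt-Nd5 (-0.091 to 0.13) and mt-Nd6 (-0.20 to 0.013). Members with under 40 counts, among them mt-Atp8, mt-Nd3, Ndufs5 and Cox4i2, are limited by depth.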

Other observations

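Rows marked -ps, which were left out of the members, were also below 0 where they could be tested. Of 13 such rows, 5 were tested, all 5 had a log2 fold change below 0 (median -0.43), and 0 were called by edgeR or DESeq2. At an unadjusted p under 0.05 in edgeR, 4 were lower, against 10.4% of all genes tested. Ndufs5-ps, Cox5b-ps and Ndufa12-ps align to their members at 99.2% to 99.5% identity and compete with them for reads. These rows are therefore not separate from the members. Ndufb1-ps, the row of the family of complex I subunit B1, had 378 and 317 counts in WT and 210 and 167 in Haspin-KO (log2 fold change -0.43, edgeR adjusted p = 0.142). Ndufa12-ps had 357 and 272 counts in WT and 172 and 144 in Haspin-KO (log2 fold change -0.54, edgeR adjusted p = 0.0854), beside 542 and 434 counts in WT and 259 and 258 in Haspin-KO for Ndufa12 (log2 fold change -0.46, edgeR adjusted p = 0.0675). In all 3 rows the Haspin-KO libraries were below the WT libraries.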
